A study of Mus musculus with 10 samples.

Results

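Mdk, F5, Egfl6 and Spp2 are 4 of the 13837 genes in a table of kidney RNA, and all 4 encode proteins that cells release. They were picked as secreted proteins with low values in mutant kidneys, so the difference between genotypes chose them and is given below as a description without a test. All 4 were among the 13197 genes tested, and their log2 fold changes held ranks 2 (F5), 8 (Egfl6), 15 (Mdk) and 25 (Spp2), counted from the lowest. Of the 25 genes at or below the log2 fold change of Spp2, 21 are not members. RNA was measured, and the values do not show protein or its release.

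The C57BL/6 mice carried either 2 unedited copies of Rragc (+/+, n = 5) or 1 copy with the S74N change (KI/+, n = 5), and both groups were 3 months old. Rragc encodes RagC, a small GTPase that passes nutrient signals to the kinase complex mTORC1 at the lysosome, and S74N is an activating form. The allele was made by injecting Cas9 and a repair oligonucleotide, which also held silent changes, so that it is present in every cell of the body and not in the kidney alone. Each library came from the whole kidney tissue of 1 mouse, so fewer cells of a type and less RNA per cell cannot be told apart.

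Midkine, the product of Mdk, is a heparin-binding growth factor that is made in kidney tubules and has been studied in kidney injury. F5 encodes coagulation factor V, the cofactor of factor Xa in the complex that makes thrombin, which comes mainly from the liver and is also carried by platelets. Egfl6 encodes a basement membrane protein with EGF repeats that binds integrin α8β1, and Spp2 encodes secreted phosphoprotein 24, a cystatin-related bone matrix protein that binds BMP2.

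The genes lie apart in the genome, with F5 and Spp2 on chromosome 1, Mdk on chromosome 2 and Egfl6 on chromosome X, while the edited Rragc is on chromosome 4. RefSeq promoter sequences on GRCm38.p6 were found for 3 of the 4 genes. They are shown because the genes were low together, and a reader may want to compare the letters in front of them. Each runs 5′ to 3′ on the strand of the gene, and capitals mark the CCAAT box, which reads ATTGG on the other strand, and the GC box. Spp2 lies at chr1:88406760-88406965 on the plus strand, F5 at chr1:164151585-164151834 on the plus strand and Egfl6 at chrX:166585717-166585966 on the minus strand.
Spp2: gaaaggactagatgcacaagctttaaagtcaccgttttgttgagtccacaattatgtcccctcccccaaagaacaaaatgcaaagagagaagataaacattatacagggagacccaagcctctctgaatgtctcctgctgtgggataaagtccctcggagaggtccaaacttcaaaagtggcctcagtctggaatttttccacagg
F5: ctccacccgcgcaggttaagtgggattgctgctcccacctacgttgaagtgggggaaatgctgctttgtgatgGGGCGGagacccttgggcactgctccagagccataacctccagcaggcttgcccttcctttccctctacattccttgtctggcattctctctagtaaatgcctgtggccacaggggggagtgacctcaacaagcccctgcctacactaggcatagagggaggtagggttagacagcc
Egfl6: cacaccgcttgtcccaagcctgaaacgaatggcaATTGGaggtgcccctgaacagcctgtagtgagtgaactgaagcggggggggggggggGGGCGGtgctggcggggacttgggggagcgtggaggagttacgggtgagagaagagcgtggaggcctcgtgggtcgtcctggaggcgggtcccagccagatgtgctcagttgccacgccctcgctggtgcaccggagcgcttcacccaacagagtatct
The Spp2 sequence has 206 bases because the RefSeq gene record begins before the start used for its window.

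In windows of 250 bases, the G and C content was 43.6% for Spp2, 57.2% for F5 and 64.8% for Egfl6, against a median of 52.4% over 32851 RefSeq windows of the same length. The Spp2 window includes 44 bases inside the gene record that are not printed above, and its figures here cover them. Egfl6 had 15 CpG pairs, F5 had 4 and Spp2 had 3, against a median of 6. On both strands, the GC box GGGCGG was found in 2 of the 3 windows (F5 at position -177, Egfl6 at -159) and in 32.7% of all windows. CCAAT was found in front of Egfl6 (at -216) and in 33.8% of all windows. The general E-box CANNTG was found in 1 of the 3, again Egfl6, and in 66.2% of all, and 1 of its matches in Egfl6 overlaps the CCAAT match. CACGTG, the E-box read by MiT/TFE factors, was in 0 of the 3 windows and in 6.02% of all, and the longer CLEAR element was in 0 of 3 and in 0.24% of all. The palindromic HNF1 site (0.00913% of all windows), the HNF4A letters CAAAGTCCA (0.384%) and TATAAA (12.4%) were also in 0 of the 3. No motif searched was found in all 3 windows. A match here describes letters and is not a measured binding site.

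Values are given as normalized counts, which are reads divided by the size factor of the library. Reads were taken near the 3′ end of each transcript, so long transcripts do not gain more counts than short ones. Undoing the size factors gave 6501552 to 7856363 reads per +/+ mouse and 6872310 to 7996087 per KI/+ mouse. Rragc itself had 244 to 347 normalized counts in +/+ and 189 to 248 in KI/+ mice, which did not pass the limma test (log2 fold change -0.40, adjusted p = 0.0678). Rragc passed in 1 of 11 alternative settings, which was DESeq2 (adjusted p = 0.0312), and in 0 of 10 fits that left out a mouse. The expressed allele cannot be read from these counts. Transcripts of Y-linked genes were counted in all 10 mice. Library codes fell into 2 runs, with endings from 38 to 40 (2 +/+ mice and 1 KI/+ mouse) and from 53 to 66 (3 +/+ and 4 KI/+ mice), and the labels do not say what a run stands for.

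Mdk, the growth factor, had 213, 220, 194, 221 and 281 normalized counts in +/+ mice 1 to 5. In KI/+ mice 1 to 5 it had 41.7, 38.1, 37.8, 37.6 and 44.8. The genotypes did not overlap, and the lowest +/+ mouse stood 4.33-fold above the highest KI/+ mouse. Mean counts were 226 ± 32.7 (SD, n = 5) in +/+ and 39.996 ± 3.16 (SD, n = 5) in KI/+, so that KI/+ kidneys held 17.7% of the +/+ level. The log2 fold change on the log2(value + 1) scale was -2.46 (SE 0.10), and +/+ mouse 5 was the one value that stood well above the other four of its group.

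F5, the clotting cofactor, had 149, 153, 225, 194 and 188 normalized counts in +/+ mice 1 to 5. The KI/+ mice had 18.97, 11.1, 12.6, 17.8 and 28.2. The lowest +/+ mouse was 5.27-fold above the highest KI/+ mouse, the widest gap of the 4 genes, and KI/+ mouse 5 held more than the other KI/+ mice. Means were 182 ± 31.4 and 17.7 ± 6.73 (SD, n = 5 each), which left 9.77% of the +/+ level and a log2 fold change of -3.34 (SE 0.25). The KI/+ values rest on 12 to 29 reads per mouse.

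Egfl6, the basement membrane protein, had 75.8, 103, 122, 145 and 152 normalized counts in +/+ mice 1 to 5. The KI/+ mice had 12.3, 13.9, 14.7, 18.8 and 15.6. No value of one genotype lay within the other, and the lowest +/+ mouse still stood 4.03-fold above the highest KI/+ mouse. Means were 120 ± 31.0 and 15.1 ± 2.39 (SD, n = 5 each), or 12.6% of the +/+ level, with a log2 fold change of -2.88 (SE 0.20). These KI/+ values rest on 13 to 19 reads per mouse.

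Spp2, the bone matrix phosphoprotein, was the most abundant of the 4, with 1061, 1030, 1033, 1053 and 1068 normalized counts in +/+ mice 1 to 5. The KI/+ mice had 341, 302, 234, 170 and 318. The +/+ mice were nearly level with each other, whereas KI/+ mouse 4 held the least and KI/+ mouse 1 the most of their group. Means were 1049 ± 16.7 and 273 ± 70.1 (SD, n = 5 each), with 26.0% of the +/+ level left in KI/+ kidneys and a log2 fold change of -1.98 (SE 0.18). The gap between the groups, 3.02-fold, was the smallest of the 4.

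**Figure D1:**
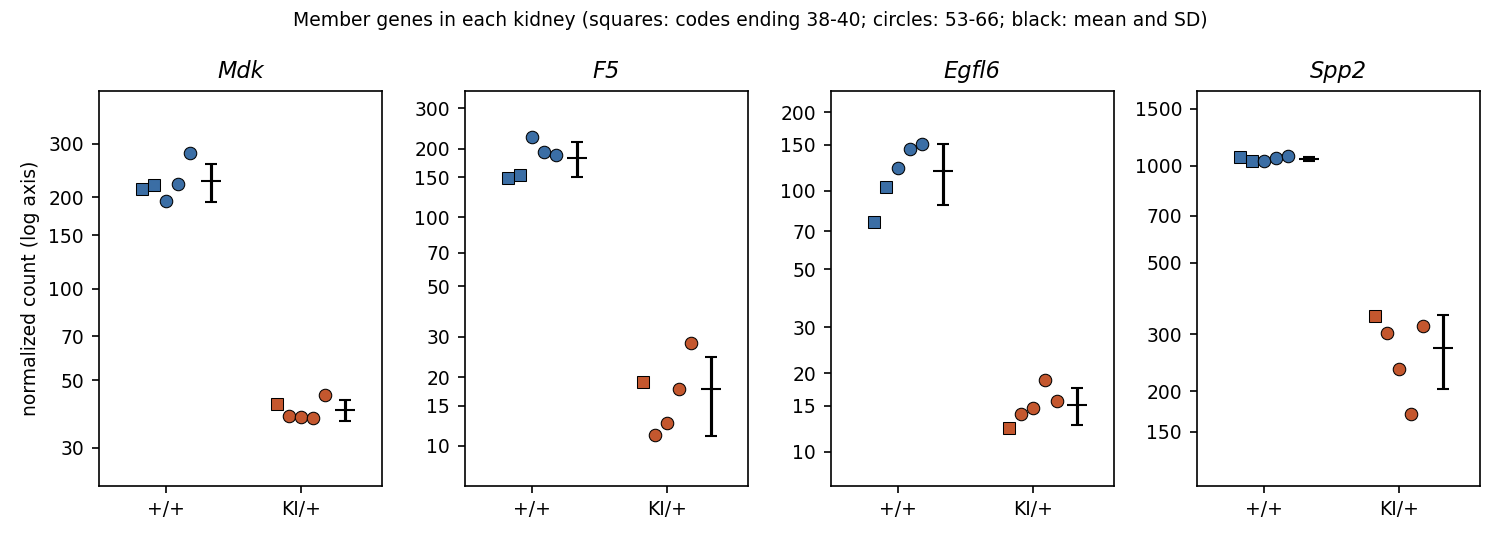
Normalized counts of Mdk, F5, Egfl6 and Spp2 in each kidney on a log axis, with +/+ mice in blue and KI/+ mice in orange, squares for library codes ending 38 to 40 and circles for 53 to 66, and black bars for the mean and SD of 5 mice. In all 4 genes every KI/+ point lies below every +/+ point, with gaps of 3.02-fold (Spp2) to 5.27-fold (F5).

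Every KI/+ mouse was below every +/+ mouse in 4 of 4 members, as in 2.71% of all tested genes. Because the genes were chosen on this contrast, nothing is read from that share. In +/+ kidneys the order of levels was Spp2, Mdk, F5 and Egfl6. Spp2 stood apart from the rest, while Mdk overlapped with F5 and F5 with Egfl6 over mice. The order of the means was the same in KI/+ kidneys, where Mdk (37.6 to 44.8) no longer overlapped with F5 (11.1 to 28.2) and F5 still overlapped with Egfl6 (12.3 to 18.8). Among all tested genes, Spp2 moved from the level percentile 93.2 to 73.6, Mdk from 69.7 to 26.3, F5 from 64.2 to 10.2 and Egfl6 from 52.9 to 7.55.

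The 4 genes did not keep their proportions. The log2 ratio of Mdk to F5 was higher in KI/+ than in +/+ mice by 0.93 (SE 0.25), and that of F5 to Spp2 was lower, by -1.43 (SE 0.29). In both ratios the genotypes did not overlap. For Mdk to Egfl6 (0.47, SE 0.20), Mdk to Spp2 (-0.50, SE 0.18), F5 to Egfl6 (-0.46, SE 0.27) and Egfl6 to Spp2 (-0.97, SE 0.33) the mice of the genotypes overlapped. These differences come from the same contrast and are a description.

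The spread between mice was set beside the spread that counting reads alone gives. Spp2 had an SD of 0.023 on the log2 scale over +/+ mice, where counting gives 0.045, and an SD of 0.41 over KI/+ mice, where counting gives 0.089. The SD over KI/+ mice was thus 4.59 times the counting SD. F5 had an SD of 0.25 in +/+ (counting 0.11) and 0.50 in KI/+ (counting 0.36). Mdk and Egfl6 went the other way: their +/+ SDs of 0.20 and 0.40 exceeded the counting SDs of 0.098 and 0.14, but their KI/+ SDs of 0.11 and 0.21 were under the counting SDs of 0.23 and 0.37. At 13 to 46 reads per KI/+ mouse, differences among KI/+ mice in Mdk and Egfl6 were not detectable at this depth. In Spp2 the +/+ SD of 0.023 was likewise under the counting SD of 0.045, so differences among +/+ mice were not detectable. Counting SDs treat reads as independent molecules and cover counting error only.

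**Figure D2:**
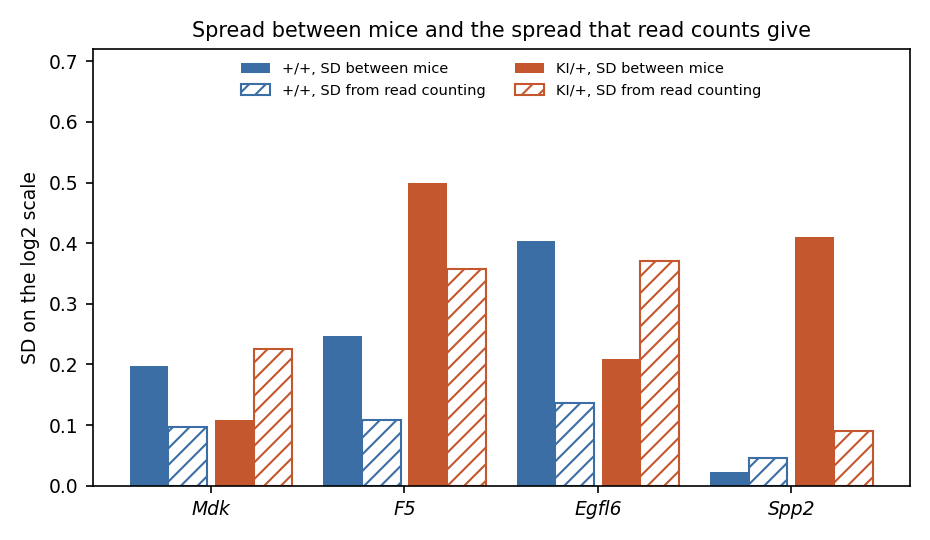
SD on the log2 scale between the 5 mice of each genotype (filled bars) and the SD that the read counts alone give (hatched bars), for each gene. Spp2 stands out, with 0.023 between +/+ mice and 0.41 between KI/+ mice against counting SDs of 0.045 and 0.089.

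Whether the genes varied together inside a genotype is a question that their choice did not use. Each mouse was taken as its deviation from the mean of its genotype, and mice were ranked within the genotype from 1 (highest). The sum of 4 ranks was lowest in +/+ mouse 5 (6) and KI/+ mouse 5 (6), so these held high values of most of the genes. It was 16 in +/+ mice 1 and 2, and 15 in KI/+ mice 2 and 3. KI/+ mouse 4 was lowest in Mdk and Spp2 but highest in Egfl6.

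**Figure D3:**
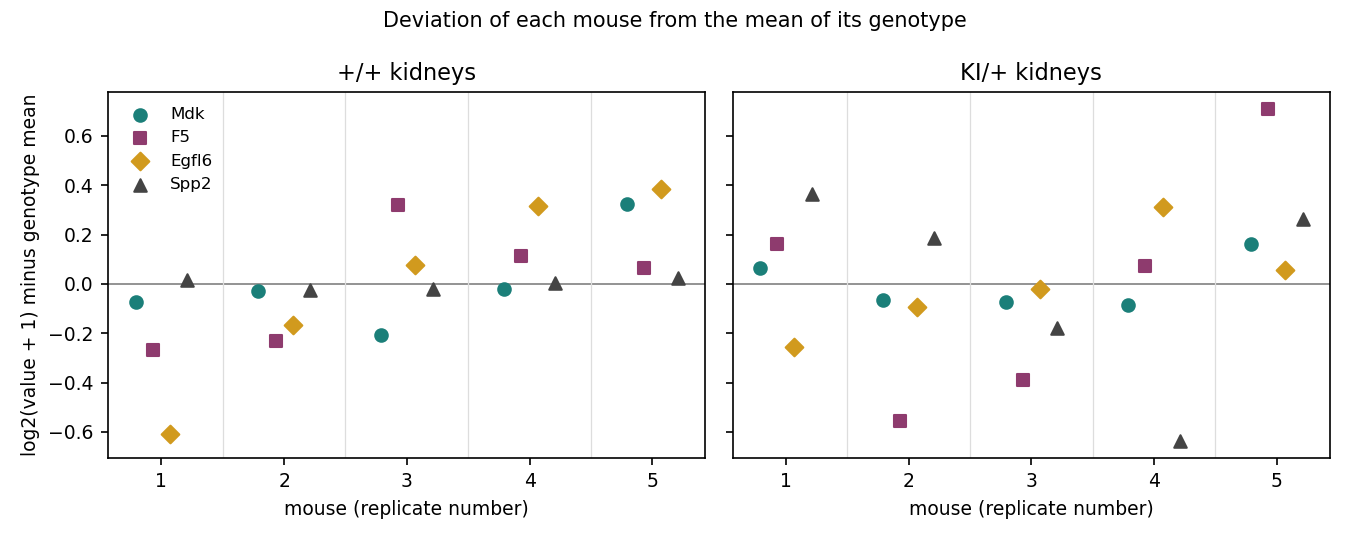
Deviation of each mouse from the mean of its genotype, on the log2(value + 1) scale, with 4 points per mouse for Mdk, F5, Egfl6 and Spp2. The 4 genes lie on the same side of 0 in KI/+ mouse 5, while in KI/+ mouse 4 Egfl6 is high and Spp2 is low, and the Spp2 points of +/+ mice lie close to 0.

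Across the 10 mice, 0 of 6 pairs of genes passed after adjustment (two-sided exact permutation within genotype over 14400 pairings, Benjamini-Hochberg over 6 pairs), and 0 of 6 had an unadjusted p of Pearson's r under 0.05. The correlation was positive in 5 of them. The pair F5 and Egfl6 had r = 0.36 (exact p = 0.222, adjusted p = 0.437) and rho = 0.32 (exact p = 0.329, adjusted p = 0.658), with deviations of the same sign in 9 of 10 mice. Its r was 0.48 without the 2 mice farthest from the median of F5, and 0.20 when mice were centred by genotype and run of library codes (exact permutation p = 0.677). Both genes differed between the runs in +/+ mice, and the part of this in r was not tested. The pair Mdk and Spp2 had r = 0.36 (exact p = 0.0945, adjusted p = 0.284) and rho = 0.70 (exact p = 0.0327, adjusted p = 0.196), with r = 0.47 without the 2 mice farthest in Mdk. Ranks gave a closer relation than values did for this pair, and neither passed the adjustment.

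The only negative pair was Egfl6 and Spp2, with r = -0.38 (exact p = 0.0807, adjusted p = 0.284), rho = -0.25 (exact p = 0.406, adjusted p = 0.658) and r = -0.64 without the 2 mice farthest in Egfl6. Mdk and F5 had r = 0.33 (exact p = 0.291, adjusted p = 0.437) and rho = 0.22 (exact p = 0.549, adjusted p = 0.658). That relation rested on 2 mice, since r was -0.05 without the 2 farthest in Mdk. The pair Mdk and Egfl6 also lost its sign, with r = 0.31 (exact p = 0.511, adjusted p = 0.613), rho = 0.13 (exact p = 0.765, adjusted p = 0.765) and r = -0.27 without the 2 farthest in Mdk. F5 and Spp2 had r = 0.18 (exact p = 0.745, adjusted p = 0.745), rho = 0.26 (exact p = 0.529, adjusted p = 0.658) and r = 0.12 without the 2 farthest in F5.

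The run of library codes moved with 2 of the genes among +/+ mice. F5 had 149 to 153 normalized counts in the 2 +/+ mice with codes 38 to 40 and 188 to 225 in the 3 with codes 53 to 66, and Egfl6 had 75.8 to 103 against 122 to 152. Mdk (213 to 220 against 194 to 281) and Spp2 (1030 to 1061 against 1033 to 1068) overlapped between runs. Mitochondrial transcripts took 24.5 to 25.7% of reads in the former +/+ mice and 28.7 to 30.1% in the latter. The KI/+ mice went the other way, with 27.1% in the mouse coded 40 and 23.9 to 25.8% in those coded 53 to 66. Within codes 53 to 66 the genotypes thus did not overlap in this share. With the run as a covariate the log2 fold changes between genotypes were -2.46 (Mdk), -3.37 (F5), -2.98 (Egfl6) and -1.94 (Spp2). Within codes 53 to 66 they were -2.51, -3.54, -3.07 and -2.07. Within codes 38 to 40, with 1 KI/+ mouse, they were -2.35, -2.93, -2.75 and -1.61. All 4 genes were thus lower in KI/+ mice in each run. The lack of overlap between genotypes fixed this direction in advance, so it is no separate support.

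The deviations were next set against marker lists of 7 nephron cell types, since proximal tubule, loop, distal tubule, collecting duct and podocytes differ in what they release. Of 28 relations, 0 passed the adjustment and 1 had an unadjusted p of Pearson's r under 0.05. That was Spp2 with the early proximal tubule list, which holds carriers such as Slc5a2, the sodium-glucose transporter. It had r = 0.86 (exact p = 0.0226, adjusted p = 0.497) and rho = 0.89 (exact p = 0.00326, adjusted p = 0.0914). Without the 2 mice farthest from the median of the list's mean z-score, r was 0.77. Since +/+ mice hardly varied in Spp2, the value of r comes mostly from the 5 KI/+ mice. By ranks, Egfl6 with the thick ascending limb list also had an unadjusted p under 0.05 (rho = -0.68, exact p = 0.0445, adjusted p = 0.623), while its r was -0.48 (exact p = 0.117, adjusted p = 0.547). That r became -0.66 without the 2 mice farthest in the list's mean z-score, and 0.12 when centred by genotype and run.

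Among all tested genes, those whose deviations were most like each member over the 10 mice are given as a description, because the highest of 13197 correlations is high by selection. Nsun5 (r = 0.96), Rassf2 (0.92) and Entr1 (0.92) were nearest to Mdk. Cul4a (0.94), Cavin2 (0.93) and Igkc (0.93) were nearest to F5. Sin3a (0.97), N6amt1 (0.96) and Htatsf1 (0.95) were nearest to Egfl6, and Scrn1 (0.96), Acot3 (0.95) and Mphosph8 (0.94) to Spp2. Of these 12 genes only Igkc, an immunoglobulin constant region, differed between genotypes in the limma fit, and it was higher in KI/+ kidneys (log2 fold change 1.30, adjusted p = 0.0390). The number of genes with r of 0.8 or more was 22 for Mdk, 108 for F5, 122 for Egfl6 and 69 for Spp2. No other member was among the nearest genes of any member.

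The protein networks of the members were described with lists of partner genes, leaving the members out. Over all tested genes, 3.69% passed limma (Benjamini-Hochberg over 13197 genes, threshold 0.05), 2.02% lower and 1.67% higher in KI/+, and the median log2 fold change was 0.00046. Of midkine's relatives, receptors and binding partners, 22 of 26 were tested, 1 was higher, 0 were lower and the median log2 fold change was -0.02. The gene that rose was Gpc1, a heparan sulfate proteoglycan of the cell surface, from 101 ± 21.8 to 218 ± 35.9 normalized counts (SD, n = 5 each), with a log2 fold change of 1.12 (SE 0.16, adjusted p = 0.000321).

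In the coagulation and fibrinolysis list, 25 of 40 genes were tested, 1 was higher, 2 were lower and the median was 0.03. Tfpi, the inhibitor of the tissue factor pathway, fell from 48.5 ± 8.15 to 23.0 ± 5.50 normalized counts (log2 fold change -1.06, SE 0.21, adjusted p = 0.00526). The call held without any 1 of the 10 mice, while within codes 53 to 66 its log2 fold change was -0.99 and its adjusted p 0.0795, the highest of the other alternatives (lowest 0.000252). Kng2, a kininogen, fell (log2 fold change -0.49, adjusted p = 0.0278) and Serpine2, a protease inhibitor, rose (0.62, adjusted p = 0.0288). Each of these calls was lost when any of 5 mice was left out (Kng2: +/+ 2 to 5 and KI/+ 1; Serpine2: +/+ 2, +/+ 4 and KI/+ 3 to 5), with adjusted p up to 0.0727 and 0.0675. The 22 other tested genes of clotting did not pass.

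Among integrin α8 ligands and EGF-like matrix proteins, 23 of 29 genes were tested, 0 were higher, 2 were lower and the median was -0.07. These were Frem1, a basement membrane protein of the Fraser complex (log2 fold change -1.05, adjusted p = 0.0456), and Spp1, osteopontin (-0.53, adjusted p = 0.0245). Frem1 had 12.5 to 26.7 normalized counts in +/+ and 5.84 to 11.1 in KI/+ mice. It met the filter of 10 normalized counts in 5 mice only through its +/+ values, so its p is not independent support. Frem1 passed in only 1 of 10 fits that left out a mouse, the one without +/+ mouse 3, and Spp1 in 5 of 10, those without +/+ mouse 3 and KI/+ mice 1, 2, 3 and 5. In the list of BMP signalling and cystatin-related proteins, 33 of 39 were tested and 3 were lower, Sostdc1, a secreted BMP antagonist (-0.55, adjusted p = 0.00132), Id3, a BMP target (-0.53, adjusted p = 0.0176), and again Spp1. Here 0 were higher, the median was -0.04, and the Id3 call was lost without +/+ mouse 4 or 5 (adjusted p up to 0.0672).

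A list of 46 other secreted proteins of the kidney, 40 of them tested, had 6 higher and 6 lower genes with a median of -0.04. Wfdc15b fell from 2778 ± 130 to 812 ± 270 normalized counts (log2 fold change -1.86, adjusted p = 1.65e-05). Umod, the urinary protein of the thick ascending limb, had a log2 fold change of -0.999 (adjusted p = 0.000198) and the growth factor gene Fgf9 fell by 1.10 (adjusted p = 0.000793). Ren1, renin, rose by 1.09 (adjusted p = 0.00106), and Pappa2, a protease of IGF-binding proteins, had 0.889 to 4.29 normalized counts in +/+ and 14.9 to 42.8 in KI/+ mice (adjusted p = 0.000284). Pappa2 met the filter of 10 normalized counts in 5 mice only through its high KI/+ values, so its p is not independent support. Secreted proteins as a list thus moved both ways, and Spp1 is counted in 3 of the lists.

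**Figure D4:**
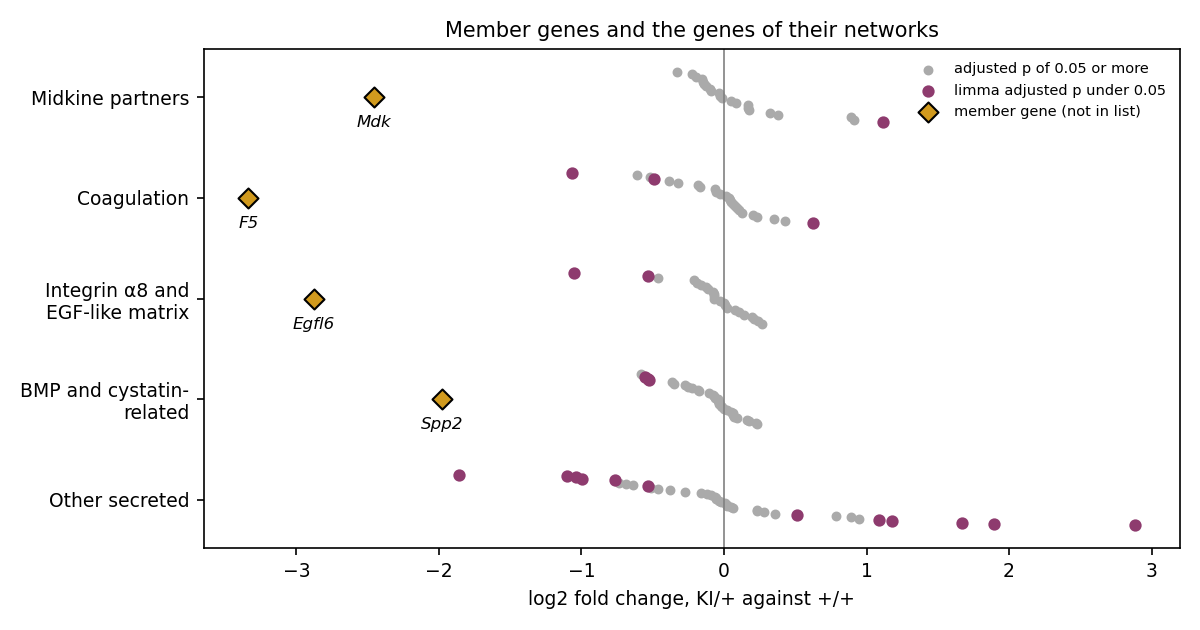
Log2 fold change of KI/+ against +/+ kidneys for the tested genes of 5 lists (grey, purple where limma's adjusted p was under 0.05), with the 4 members as diamonds outside the lists. The members lie between -3.34 and -1.98, while the lists have medians from -0.07 to 0.03.

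Markers of other cells were read in the same libraries. In the list for the distal convoluted tubule, where Slc12a3 encodes the sodium chloride cotransporter, 6 of 10 genes were lower, 0 were higher and the median log2 fold change was -0.51. Pvalb, parvalbumin, had the smallest p and the lowest value of the list, a log2 fold change of -3.06 (adjusted p = 5.08e-09). Slc12a3 followed with -1.20 (adjusted p = 2.61e-07), Klhl3, part of a ubiquitin ligase, with -1.03 (adjusted p = 3.07e-06) and Trpm6, a magnesium channel, with -1.84 (adjusted p = 1.74e-05). Its summed level was 18585 to 25270 in +/+ and 15666 to 22848 in KI/+ mice. The early proximal tubule list had 4 lower and 1 higher gene of 10, with sums of 47822 to 51813 and 49036 to 57892, and the thick ascending limb 4 lower and 1 higher of 9, with sums of 32586 to 42259 and 15317 to 24955 that did not overlap. Each sum leans on the most abundant gene of its list. Mean counts in +/+ and KI/+ were 13674 and 12586 for S100g (distal convoluted tubule), 28061 and 29693 for Slc34a1 (early proximal tubule), and 22917 and 11569 for Umod (thick ascending limb). The part of these shifts in the members' values was not tested.

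Of 10 hepatocyte markers, 7 were in the table and tested, and 1 passed limma, higher in KI/+. That was Alb, albumin, with 39.7 to 95.4 normalized counts in +/+ and 80.9 to 469 in KI/+ mice (log2 fold change 1.99, adjusted p = 0.00362). The other 6 did not pass. Apoa1 had 0.89 (adjusted p = 0.594), Serpina1a 0.79 (adjusted p = 0.167), Ttr 0.76 (adjusted p = 0.204) and Apoa2 0.73 (adjusted p = 0.175). Fga had 0.13 (adjusted p = 0.835) and Fgb -0.39 (adjusted p = 0.772). The median of the list was 0.76, and 4 of the 7 had an unadjusted limma p under 0.05. For this list edgeR called 2 genes and DESeq2 called 1. The summed level of the list was 1248 to 1564 in +/+ and 2001 to 5132 in KI/+ mice, and most of the highest sum came from Ttr, which had 711 to 980 normalized counts in +/+ and 993 to 4588 in KI/+ mice. The part of this list in the values of F5 and Spp2 was not tested. Platelet markers (3 of 10 in the table: Pf4, Ppbp and Itga2b) summed to 72.6 to 126 in +/+ and 93.9 to 124 in KI/+ mice. By limma 0 of these 3 passed, 0 had an unadjusted p under 0.05, and edgeR and DESeq2 called 0.

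Genes next to the members along the chromosome were also compared, taking 3 protein-coding genes on each side. Of these 24 neighbours, 15 were tested and 0 passed limma, against 3.69% of all tested genes. With 15 genes, 0 cannot be told from that share. Their log2 fold changes ran from -0.25 to 0.36, 1 had an unadjusted p under 0.05, and edgeR and DESeq2 called 0. On each side of Mdk, for example, Dgkz had 0.36 (adjusted p = 0.207) and Ambra1 -0.06 (adjusted p = 0.873).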

How the data were processed

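Total RNA of whole kidney was made into QuantSeq 3′ libraries. Per the labels and the study's methods, the authors checked reads with FastQC 0.11.7, aligned them with TopHat2 2.0.10 to GRCm39, allowing 3 mismatches and 20 multi hits, and obtained strand-specific gene counts with HTSeq 0.6.1 on the GENCODE vM26 annotation. The deposited signal is a normalized count (reads over the size factor of the mouse's library) for 13837 genes with a mean of at least 5.64. Every value was a whole number of reads within 0.01, and whole reads (100% of values) were recovered. Multiple hits can move reads between near-identical genes.

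The authors' normalization was kept. Values were tested on log2(value + 1), a scale that understates the change of low genes, two-sided, by limma 3.58.1 under R 4.3.3 (eBayes trend on, Benjamini-Hochberg, threshold 0.05), in the 13197 genes with at least 10 normalized counts in at least 5 mice. Mice are numbered in the order of their records, and the labels do not tie them to litters or cages. Genes called numbered 487. As alternatives on recovered reads, edgeR 4.0.16 called 480 and DESeq2 1.42.0 called 648. Relations within a genotype were tested by exact permutation of the mice inside each genotype (scipy 1.17.1, numpy 2.4.6, pandas 2.3.3, python 3.11.15, matplotlib 3.10.9). Steps were tested on simulated data.

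The members and the gene lists were chosen with earlier results of these data known. Named genes are the members, the 3 genes most like each, up to 5 called genes with the smallest p of each of the 5 partner and secreted lists, markers of the cell type lists, and Rragc. C3 of the secreted list is named as well, because its call was often lost. The neighbours of Mdk were picked after their values were seen. Marker lists not described above had these calls among tested genes: last proximal tubule segment 1 higher of 9, principal cell 2 higher of 10, intercalated cell 3 lower of 10, podocyte 3 higher of 10, and endothelium 0 of 10, stroma 0 of 9 and leukocyte 0 of 7 (2 of each with an unadjusted p under 0.05; edgeR and DESeq2 called 0). All 3 podocyte calls (Synpo, Ptpro and Thsd7a) were lost without +/+ mouse 5 and without KI/+ mouse 1. Of the intercalated cell calls, Atp6v0d2 was lost without +/+ mouse 4, +/+ mouse 5, KI/+ mouse 2 or KI/+ mouse 4 (limma adjusted p up to 0.0780). Aqp6 and Slc4a1 passed in all 10 of these fits. With a mouse left out, Napsa of the last proximal segment passed in 3 of 10 fits (without +/+ mouse 2, KI/+ mouse 3 or KI/+ mouse 5) and Hsd11b2 of the principal cell in 4 of 10 (without +/+ mouse 1, +/+ mouse 2, KI/+ mouse 3 or KI/+ mouse 4). Of the principal cell list edgeR called 1 and DESeq2 5. Gene order came from RefSeq on GRCm38.p6, a different build from GRCm39, and no coordinates were converted.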

Additional observations from a re-analysis of the deposited data

How the results depend on the processing

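The 4 log2 fold changes kept their direction in all 21 alternatives, with ranges of -2.51 to -2.35 (Mdk), -3.54 to -3.07 (F5), -3.07 to -2.60 (Egfl6) and -2.07 to -1.82 (Spp2). The number of genes called, 487, became 832 with the code run as a covariate (398 lower and 434 higher in KI/+, against 267 and 220), and ran from 295 (without +/+ mouse 5) to 466 when a mouse was left out, with 310 without +/+ mouse 4. Within codes 53 to 66 it was 346. There the list genes Tfpi, Kng2, Serpine2, Frem1, Spp1 and Id3 no longer passed limma (adjusted p of 0.0795, 0.109, 0.0834, 0.213, 0.0892 and 0.128). The same held for C3 (0.168), Kcnj1 (0.0629), Napsa (0.0761), Synpo (0.0761) and Thsd7a (0.153). The cause was not tested. C3, a gene of the secreted list that was higher in KI/+, also passed in only 3 of 10 fits that left out a mouse. No pair of members passed the adjustment in any alternative. With a mouse left out r ran from -0.143 (without +/+ mouse 5) to 0.431 for Mdk with Egfl6, from -0.121 (without KI/+ mouse 5) to 0.481 (without KI/+ mouse 4) for F5 with Spp2, from 0.0609 (without KI/+ mouse 5) to 0.604 (without +/+ mouse 3, where the exact permutation p was 0.0427 and the adjusted p 0.240) for Mdk with F5, from -0.554 (without +/+ mouse 1) to -0.111 (without KI/+ mouse 4) for Egfl6 with Spp2, from 0.253 (without KI/+ mouse 5) to 0.565 (without +/+ mouse 5) for Mdk with Spp2, and from 0.253 to 0.448 for F5 with Egfl6. Without KI/+ mouse 5, Egfl6 with Spp2 had r of -0.439 (exact permutation p = 0.0410, adjusted p = 0.246). For Spp2 with the early proximal tubule list it stayed between 0.831 and 0.901.

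Several relations with marker lists changed sign, and none passed the adjustment on either side. With values scaled to the library's total reads, r was -0.158 for F5 with early proximal tubule, -0.0894 for F5, 0.0191 for Egfl6 and -0.0147 for Spp2 with distal convoluted tubule, and -0.00664 for Mdk with podocyte. Spearman's rho was -0.0303 for F5 with principal cell and 0.0667 for F5 with intercalated cell. Centred by genotype and run, r was -0.0460 (F5, early proximal tubule), 0.323 (Egfl6, last proximal segment), 0.125 (Egfl6, thick ascending limb), -0.0369 (F5, distal convoluted tubule), -0.105 (Spp2, distal convoluted tubule) and 0.00566 (F5, intercalated cell). With a mouse left out, r ran from -0.141 to 0.225 (F5, early proximal tubule), -0.422 to 0.125 (Mdk, last proximal segment), -0.472 to 0.231 (Spp2, thick ascending limb), -0.323 to 0.0157 (Egfl6, distal convoluted tubule), -0.155 to 0.538 (Spp2, distal convoluted tubule), -0.388 to 0.741 (Mdk, principal cell), -0.691 to 0.439 (F5, principal cell), -0.443 to 0.412 (F5, intercalated cell), -0.683 to 0.0605 (Egfl6, intercalated cell), -0.655 to 0.170 (Spp2, intercalated cell) and -0.0474 to 0.627 (Mdk, podocyte).

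The labels link no +/+ mouse to a KI/+ mouse and give no replicate numbers, so no paired analysis was possible. The numbers used here only name the mice. Depth limits F5 and Egfl6 in KI/+ mice, which rest on 12 to 29 reads each.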
